A study of Mus musculus with 6 samples.

Results

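Solute carriers are membrane proteins that move amino acids, nucleosides, sugars, metals, ions and vitamins across the cell surface, the lysosome, the Golgi and the mitochondrial inner membrane. Here 155 genes with solute carrier symbols were followed in mouse microglia, the resident macrophages of the brain, and 151 of them are transporters. The other 4, Slc4a1ap, Slc7a6os, Slc9a3r1 and Slc9a3r2, carry such a symbol without being transporters. The 155 were selected on their counts in the 6 libraries: a protein-coding gene whose symbol is Slc followed by a digit was kept when at least 20 reads were counted in 3 or more of the 6 libraries. The Slc2a, Slc16a and Slc11a families and Slc40a1 were set aside. Of 371 such symbols, 29 fell to that exception, and 155 of the remaining 342 candidates passed, out of 49585 genes counted. The count rule does not use the difference between genotypes, but the members were chosen with earlier results of these data known. A member that reached 20 counts in the libraries of 1 genotype only also had to differ. Slc10a6, Slc39a8 and Slc5a10 passed through the WT libraries only, and Slc13a2, Slc17a7, Slc25a18 and Slc38a6 through the IRF8KO libraries only. In the order WT replicates 1 to 3 and IRF8KO replicates 1 to 3, the member closest to the threshold by its third-highest library, Slc22a18, had 6, 17, 30, 20, 9 and 37 counts, and the candidate just outside, Slc25a46, had 54, 182, 19, 10, 8 and 11.

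The libraries came from male mice aged 3 months. There were 3 libraries labelled WT and 3 labelled IRF8KO, the label for a knockout of the gene of IRF8, a transcription factor of macrophages, and the comparison asks which transcripts differ between mice with these labels. Each library was made from its own brain: cells were freed without enzymes, sorted by flow cytometry into TRIzol, and their polyadenylated RNA was copied with the SMART-Seq v4 kit and tagged with Nextera XT. The labels name no strain, no allele and no batch, so what part of Irf8 was altered, and in which cells, is not given in the sources used here. The kit does not mark strand and carries no molecular identifiers, so intervals and floors cover counting error only.

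Some transporters work as pairs: the light chains Slc7a5, Slc7a6, Slc7a7 and Slc7a8 reach the surface only when bound to the heavy subunit Slc3a2, and the light chain sets which amino acids are carried. Others sit in the lysosome of macrophages, where Slc29a3, Slc15a4, Slc15a3 and Slc46a3 release what digestion of engulfed material and nucleic acids yields, among it nucleosides, peptides and histidine.

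Depth ranged from 3658917 gene counts in WT replicate 1 to 11098363 in IRF8KO replicate 3. The targeted gene, Irf8, was counted in all 6 libraries, with 4084, 12022 and 10179 counts in WT and 4628, 7243 and 7834 in IRF8KO, and was not called (log2 fold change −0.44, SE 0.33, edgeR quasi-likelihood adjusted p = 0.368). These counts therefore check no label. Marker genes of microglia and macrophages were present in all libraries, with summed levels of 53239 to 100172 CPM (counts scaled to a common library size) in WT and 42105 to 60516 in IRF8KO, and of the 9 markers Fcrls rose and Cx3cr1, Aif1 and P2ry12 fell. Genes of border-associated macrophages summed to 6.02 to 10.6 CPM in WT and 1940.1 to 2624 in IRF8KO (8 listed, 6 of 6 tested higher, Lyve1 and Cd209f at 0). Astrocyte genes summed to 3.19 to 12.4 and 28.7 to 49 CPM (8 listed, 3 of 4 tested higher, Sox9 at 0). Neuron genes summed to 0.566 to 10.1 and 20.6 to 28 (8 listed, 2 of 3 tested higher), and choroid plexus genes to 0.195 to 1.98 and 14.5 to 40.7 (5 listed, 2 of 2 tested higher, Kcnj13 at 0). Genes of these 4 lists that were near 0 in WT entered the test through the IRF8KO libraries. They had to be higher, so such calls are no support. Oligodendrocyte genes summed to 284 to 696 and 475 to 687 CPM (1 of 8 lower and none higher, with a median log2 fold change of 1.44 over the 5 tested, Olig2 at 0). Endothelial and mural genes summed to 18.6 to 30.3 and 8.99 to 11.2 (8 listed, 1 of 2 tested lower, Rgs5 at 0). The counts of all marker lists stand beside 9.64% higher and 9.46% lower over all genes tested, and no list was tested against these shares. B cell genes stayed at 0.414 CPM or less in all 6 libraries, with Ms4a1 and Pax5 among those at 0. Some libraries stood apart. Neutrophil genes reached 181 CPM and monocyte genes 42.1 CPM in IRF8KO replicate 2, against at most 0.803 and 1.42 in the other libraries. Red cell genes were at 0 in WT replicates 1 and 2, at 57.6 CPM in WT replicate 3 and at 53.8 to 437 in IRF8KO. Genes of the handling response, such as Fos and Egr1, summed to 4586 and 8766 CPM in WT replicates 1 and 2, to 617 in WT replicate 3 and to 549 to 650.4 in IRF8KO (8 listed, 7 of 7 tested lower).

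WT replicate 3 also stood apart among the members themselves: it lay above both other WT libraries in 86 of the 155, in 30 of them by more than 2-fold, and below both in 51, in 16 of them by more than 2-fold. Many of the results that turn on this library are given with and without it. The part of the marker genes' cells in the results that follow was not tested.

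Between genotypes, 19 of the 155 members were called at an adjusted p under 0.05 in edgeR's quasi-likelihood test, 5 higher and 14 lower in IRF8KO. That is 12.3% of the members, against 19.1% of the 11041 genes tested. Slc5a10, Slc13a2 and Slc38a6 are among the 19 but reached 20 counts in 1 genotype only, so they had to differ; of the 148 members that did so in both, 16 (10.8%) were called, 3 higher and 13 lower. Among all genes 9.64% were higher and 9.46% lower, and among the members 3.23% were higher and 9.03% lower. The median log2 fold change was −0.17 over the members and −0.11 over all genes. In 46 members (29.7%) the 3 libraries of one genotype did not overlap the other 3, against 37.9% of all genes. An unadjusted p under 0.05 was found in 44 members (28.4%), against 33.7% of all genes. All 19 called members were separated without overlap, and 18 of them differed by at least 2-fold. Of these, 5 genes, Slc1a3, Slc12a9, Slc46a3, Slc29a3 and Slc25a10, kept the call in each of 17 other settings, which include leaving out any 1 library. The other 14 lost it in at least 1. Leaving out IRF8KO replicate 3 left only these 5 (3.23% of the members), with 910 genes called in all (7.95% of those tested then). Leaving out WT replicate 3 gave 53 called members (34.2%), 35 higher and 18 lower, beside 4003 called genes (33.5% of those tested then). Leaving out IRF8KO replicate 2, the library with neutrophil genes, gave 17 called members, 4 higher and 13 lower.

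**Figure D1:**
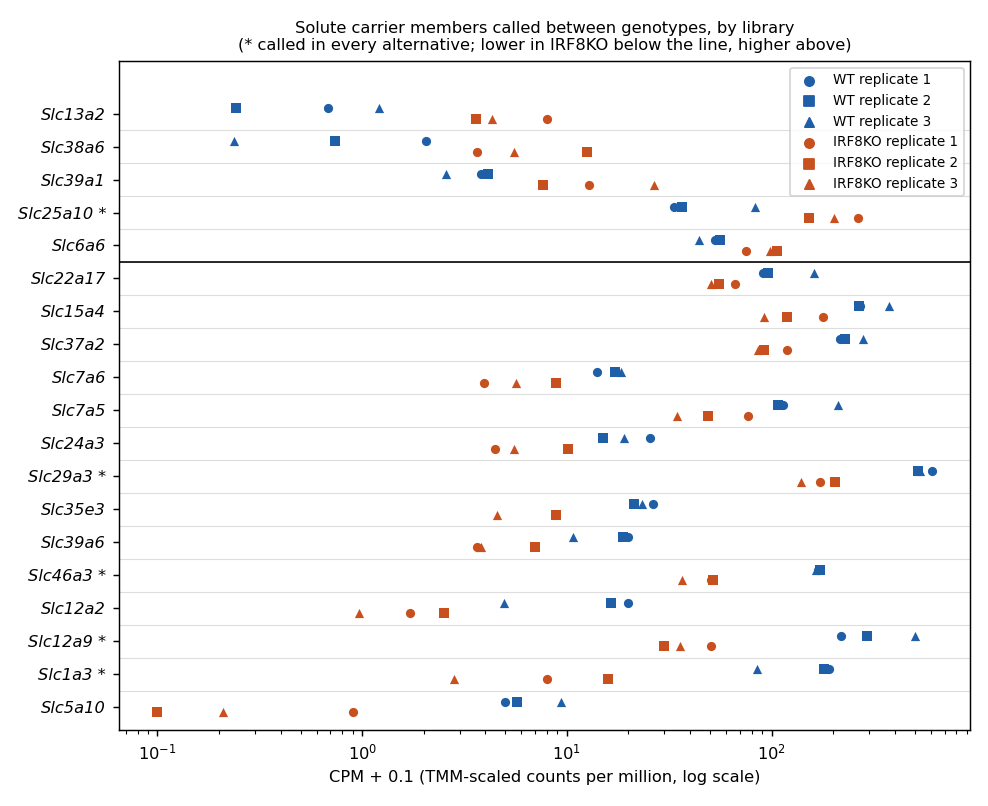
Levels of the 19 called members in each library, as CPM plus 0.1 on a log axis, with 1 row per gene, blue for WT, orange for IRF8KO and a symbol per replicate. In each row the 3 WT points and the 3 IRF8KO points do not overlap, the 14 genes below the line were lower in IRF8KO and the 5 above it higher, and asterisks mark the 5 genes called in every alternative.

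The number of called members depended on the scaling. The members took 1.53%, 1.54% and 1.69% of the gene counts in WT and 1.05%, 1.17% and 1.03% in IRF8KO, so the share was lower in every IRF8KO library. The TMM scaling used here, which lines up the bulk of the genes, brought the members' summed CPM to 10914 to 18424 in WT and 11454 to 15128 in IRF8KO, which overlap. With library size alone as the scale, the median of all genes tested moved from −0.11 to −0.61, the members' median was −0.63, and 43 members were called, 2 higher and 41 lower. That is 27.7% of the members, against 23.2% of all genes in the same fit. The share of calls that were higher went from 26.3% with TMM to 4.65% with library size alone among the members, and from 50.5% to 25.4% among all genes. Every fold change below is relative to the TMM scale, and the 19 called members kept their sign in each of the 17 settings that gave them a value, library size alone among them. For Slc12a2, Slc13a2, Slc38a6 and Slc5a10 those were 16, since they were not tested with at least 10 counts in every library. In these bulk samples, fewer cells of a type and less RNA per cell cannot be told apart.

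Among the 25 transporters of amino acids, peptides and amines, 4 fell and 2 rose (24% called), with a median log2 fold change of −0.01. These and the counts of the substrate groups that follow stand beside 19.1% called, 9.64% higher and 9.46% lower, over all genes, and no group was tested against them. Slc1a3, the glutamate and aspartate transporter known as GLAST (chr15:8634124-8710764, minus strand, GRCm38), had 191, 180.0 and 84.4 CPM in WT replicates 1, 2 and 3 and 7.86, 15.7 and 2.71 CPM in the IRF8KO replicates. The lowest WT library thus held more than 5 times the level of the highest IRF8KO library. It fell by 4.10 on the log2 scale (SE 0.57, edgeR adjusted p = 0.0005), and the log2 fold change was −4.31 without WT replicate 3. It ran from −3.65 without IRF8KO replicate 3 to −4.86 without IRF8KO replicate 2, its highest IRF8KO library. In the brain this transporter is best known from astrocytes. The astrocyte list summed to 3.19 to 12.4 CPM in WT and 28.7 to 49 in IRF8KO, and the part of those cells in the value of Slc1a3 was not tested.

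Of the heavy subunit and its light chains, Slc7a5 and Slc7a6 fell and Slc3a2, Slc7a7 and Slc7a8 were not called, and differences between the subunits were not tested. Slc3a2 had the highest level per exonic length of all members, with 327 ± 110.4 RPKM (CPM per kilobase of exon) in WT and 531 ± 91.3 in IRF8KO (SD, n = 3). Its CPM were 932, 927 and 1604 in WT and 2209, 1567 and 1841 in IRF8KO, so WT replicate 3 lay above IRF8KO replicate 2. It was not called with all libraries (log2 fold change 0.70, SE 0.34, edgeR adjusted p = 0.175) and was called higher without WT replicate 3 (1.04, adjusted p = 0.0028), with the GC and length offset (0.63, adjusted p = 0.0116) and with library sizes without Apoe (0.72, adjusted p = 0.0091).

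Slc7a5, the light chain for large neutral amino acids such as leucine, had 114, 108 and 211 CPM in WT and 76.2, 48.7 and 34.6 in IRF8KO. The highest IRF8KO library stayed under the lowest WT library. It fell by 1.44 on the log2 scale (SE 0.37, edgeR adjusted p = 0.0185), and the call was lost without IRF8KO replicate 2 and without IRF8KO replicate 3, where the adjusted p was at most 0.124. Slc7a6, which exchanges cationic for neutral amino acids, was scarcer per length, at 3.60 ± 0.476 RPKM in WT and 1.32 ± 0.539 in IRF8KO, against 38.9 ± 15.6 and 14.3 ± 5.71 for Slc7a5 (SD, n = 3). It also fell by 1.44 (SE 0.44, edgeR adjusted p = 0.0415), but lost the call in 8 of the 17 other settings.

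The 2 light chains with the highest levels per length were not called. Slc7a8 had 399, 391 and 482 CPM in WT and 402, 358 and 319 in IRF8KO, and the groups overlapped (log2 fold change −0.24, SE 0.28, edgeR adjusted p = 0.585). Slc7a7 had 182, 249 and 346 CPM in WT and 211, 167 and 186 in IRF8KO, again overlapping (−0.46, SE 0.30, adjusted p = 0.310). With library size alone both were called lower (−0.73, adjusted p = 0.0226, and −0.93, adjusted p = 0.0056), and Slc7a7 also with the GC and length offset (−0.55, adjusted p = 0.0464). Slc7a11, the cystine and glutamate exchanger, stayed under the count threshold with 5, 1 and 0 counts in WT and 4, 20 and 13 in IRF8KO.

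**Figure D2:**
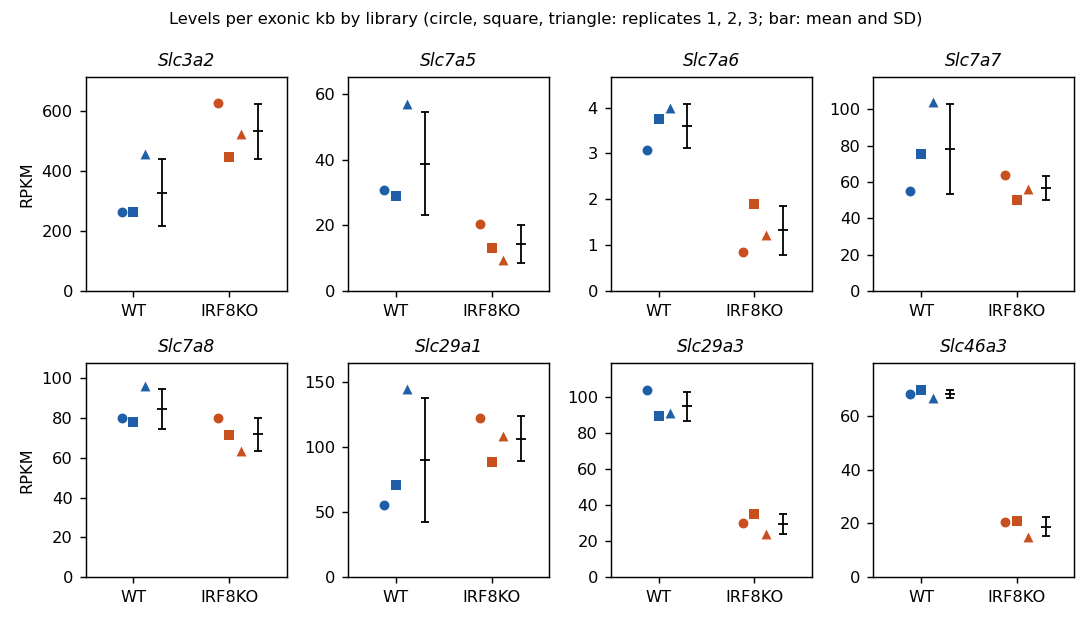
Level per exonic kilobase (RPKM, vertical axis from 0) of 8 transporters in each library, blue for WT and orange for IRF8KO, with circles, squares and triangles for replicates 1, 2 and 3 and black bars for the mean and SD of 3 libraries. Slc7a5, Slc7a6, Slc29a3 and Slc46a3 were lower in all 3 IRF8KO libraries, while in Slc3a2 and Slc29a1 WT replicate 3 lay among the IRF8KO libraries or above them.

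Of the 2 lysosomal transporters of peptides and histidine, which in immune cells act beside the Toll-like receptors of endosomes, Slc15a4 fell. It had 271, 268 and 375 CPM in WT and 179, 119 and 92.2 in IRF8KO, with no overlap. The log2 fold change was −1.23 (SE 0.32, edgeR adjusted p = 0.0196), and the call was lost without IRF8KO replicate 2 and without IRF8KO replicate 3. Its relative Slc15a3 had 30.2, 35.5 and 35.3 CPM in WT and 59.9, 49.5 and 61.6 in IRF8KO. Those groups did not overlap either, but with a log2 fold change of 0.76 (SE 0.27) it was not called (edgeR adjusted p = 0.0680), and 28.1% of its exonic length is shared with another gene, whose reads cannot be told apart here. It was called higher in 5 other settings, with log2 fold changes of 0.78 to 0.85: without WT replicate 3 (adjusted p = 0.0183), with either stranded count, with DESeq2 and with the GC and length offset.

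Both amino-acid group members that rose were scarce or changed little. Slc6a6, the taurine transporter, had 52.7, 55.9 and 44.3 CPM in WT and 75.3, 106 and 98.4 in IRF8KO. It rose by 0.87 on the log2 scale (SE 0.27, edgeR adjusted p = 0.0426), the only called change under 2-fold, and the call was lost in 10 of the 17 other settings. Slc38a6 rose from 0.907 ± 0.934 to 7.14 ± 4.71 CPM (SD, n = 3), but reads from it are uncertain, because its longest transcript shares up to 82.7% of its length at 97% identity or more with transcripts of 6 other genes. Low counts also marked 2 members that passed through IRF8KO libraries only. The vesicular glutamate transporter of neurons, Slc17a7, had 0.584, 0.0708 and 0.827 CPM in WT and 3.69, 2.33 and 3.04 in IRF8KO and was not called (edgeR adjusted p = 0.0679), and the mitochondrial glutamate carrier Slc25a18 had 0.778, 0 and 2.21 against 5.94, 5.03 and 6.72 (adjusted p = 0.0942). Without WT replicate 3 both were called higher (log2 fold change 3.49, edgeR adjusted p = 0.0275, and 4.40, adjusted p = 0.0145). Both had to be higher in IRF8KO to become members, so these calls are no support. The part of neurons and astrocytes in these values was not tested.

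The amino-acid response, a set of genes that cells switch on when amino acids run short, had 20 listed genes. Of these 17 were tested, and 2 were higher and 2 lower, with a median log2 fold change of 0.09. Over all genes tested, 9.64% were higher and 9.46% lower with a median of −0.11, and the counts of this and the other partner lists stand beside that background without a test of any list. Psat1, an enzyme of serine synthesis, rose by 2.05 (edgeR adjusted p = 0.0014), and Eif4ebp1, an inhibitor of translation that mTOR phosphorylates, by 1.64 (adjusted p = 0.0049). Nars, which charges asparagine to its transfer RNA, fell by 1.76 (adjusted p = 0.010). Genes that sense amino acids at the lysosome had 2 higher and 3 lower of 20 tested, median −0.10: the mTOR partner Rptor fell by 1.70 (edgeR adjusted p = 0.0042), the GTPase Rragc by 1.45 (adjusted p = 0.0071) and Castor2, a relative of the arginine sensor Castor1, by 1.89 (adjusted p = 0.0099). In the glutathione list, which uses the cysteine that transporters bring in, 2 of 9 tested genes were higher and 1 lower (median 0.54). Gclc, the rate-limiting enzyme of glutathione synthesis, fell by 2.97 (edgeR adjusted p = 0.0016), while the peroxidase Gpx4 rose by 1.47 (adjusted p = 0.0118) and the transferase Gsto1 by 2.02 (adjusted p = 0.0182).

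Of the 3 nucleoside transporters, the lysosomal one fell and the other 2 were not called. Slc29a3 (chr10:60712072-60752794, minus strand), which exports nucleosides from lysosomes, had 606, 519.8 and 532 CPM in WT and 173, 205 and 139 in IRF8KO. The WT libraries lay close together, each at more than 2 times any IRF8KO library. It fell by 1.68 (SE 0.29, edgeR adjusted p = 0.0020) and by 1.66 without WT replicate 3. Slc29a1, the transporter of the cell surface, had 222, 282 and 578 CPM in WT and 491, 355 and 433 in IRF8KO. WT replicate 3 was the highest of the 6 libraries and the other WT libraries the lowest, so the groups overlapped (log2 fold change 0.24, SE 0.37, edgeR adjusted p = 0.686). Without that library Slc29a1 was called higher (0.79, adjusted p = 0.0126). Per exonic length, mean levels were 90.0 ± 47.6 for Slc29a1 and 94.7 ± 8.01 for Slc29a3 in WT, and 106 ± 17.0 and 29.5 ± 5.60 RPKM in IRF8KO (SD, n = 3). By library, Slc29a1 had 55.5, 70.3 and 144 RPKM in WT against 104, 89.1 and 91.2 for Slc29a3, so Slc29a3 was the higher of the pair in WT replicates 1 and 2 and the lower in WT replicate 3 and in all 3 IRF8KO libraries.

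Enzymes that handle nucleosides had 2 of 11 tested genes higher and none lower (median 0.31). Adenosine deaminase, Ada, rose by 2.35 (edgeR adjusted p = 0.0025). Nt5e, the surface enzyme CD73 that makes adenosine, was at 0 counts in all 3 WT libraries and at 3.50 ± 1.59 CPM in IRF8KO (SD, n = 3), so it passed the filter on low counts through the IRF8KO libraries only and had to differ; its call (edgeR adjusted p = 0.0037) is no support.

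Metal and heme transporters had 1 higher and 1 lower of 22 (9.09% called), with a median log2 fold change of −0.40. Both called genes carry zinc into the cytosol. Slc39a1 had 3.7, 4.04 and 2.48 CPM in WT and 12.7, 7.54 and 26.6 in IRF8KO, where IRF8KO replicate 3 was the highest by far. It rose by 2.19 on the log2 scale (SE 0.55, edgeR adjusted p = 0.0166). Without IRF8KO replicate 3 the log2 fold change was 1.57 and the call was lost (edgeR adjusted p = 0.132). The call was also lost with library size alone, and 41.2% of its transcript matches the pseudogene Slc39a1-ps, so its level is uncertain. Slc39a6 had 19.8, 18.6 and 10.6 CPM in WT and 3.53, 6.91 and 3.69 in IRF8KO, without overlap. It fell by 1.78 (SE 0.48, edgeR adjusted p = 0.0222) and lost the call in 6 of the 17 other settings.

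The best expressed of this group was not called, and its value rests on 1 library. Slc46a1, the proton-coupled folate carrier, had 305, 386 and 926 CPM in WT and 403, 300.0 and 293 in IRF8KO (log2 fold change −0.70, SE 0.40, edgeR adjusted p = 0.247). Without WT replicate 3 the log2 fold change was −0.03, while it was called lower with library size alone (−1.10, adjusted p = 0.0185) and with the GC and length offset (−0.74, adjusted p = 0.0236). Slc48a1, which also moves heme out of lysosomes, had 47.7, 82.6 and 148 CPM in WT and 183, 111 and 159.6 in IRF8KO. It was not called (0.70, edgeR adjusted p = 0.227) and was higher without WT replicate 3 (1.23, adjusted p = 0.0080). The copper transporters Slc31a1 and Slc31a2 were not called, with log2 fold changes of −0.34 and −0.45.

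Genes that bind zinc and copper inside the cell had 4 higher and none lower of 10 tested, with a median log2 fold change of 1.02. Atox1, which hands copper to the Golgi pumps, rose by 2.75 (SE 0.35, edgeR adjusted p = 3.2e-04). The metallothioneins Mt3 and Mt1, which store zinc, rose by 3.58 (adjusted p = 0.0073) and 1.38 (adjusted p = 0.0151). The fourth was the copper and zinc superoxide dismutase Sod1, at 11.6 ± 2.37 CPM in WT and 29 ± 6.45 in IRF8KO (SD, n = 3).

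Ion transporters had 3 lower and none higher of 20 (15% called), with a median of −0.34. Slc12a9 (chr5:137314558-137333597, minus strand) belongs to the cation and chloride cotransporter family, and its own cargo is not well known. It had 219, 293 and 503 CPM in WT and 50.6, 29.9 and 35.8 in IRF8KO, which puts the lowest WT library at more than 4 times the highest IRF8KO library. It fell by 3.13 on the log2 scale (SE 0.38, edgeR adjusted p = 2.2e-04), the smallest adjusted p of all members, and by 2.71 without WT replicate 3, its highest library. The 250 bases before its start site, from RefSeq's GRCm38.p6 promoters and on the gene's strand, are shown because it has the smallest adjusted p. The capitals mark its E-box CACGTG, the letters that factors such as TFEB and MYC are known to read, 106 to 101 bases before the start.

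Slc12a9 (chr5:137333583-137333832, minus strand, log2 fold change −3.13): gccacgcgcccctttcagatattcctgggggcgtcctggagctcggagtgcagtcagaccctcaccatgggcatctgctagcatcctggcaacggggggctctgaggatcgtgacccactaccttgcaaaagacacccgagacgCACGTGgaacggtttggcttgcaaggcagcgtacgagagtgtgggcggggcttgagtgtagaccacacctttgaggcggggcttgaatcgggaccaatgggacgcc

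Slc12a2, the sodium, potassium and chloride cotransporter that loads cells with chloride, was much scarcer, at 19.8, 16.4 and 4.82 CPM in WT and 1.61, 2.42 and 0.868 in IRF8KO. It fell by 3.05 (SE 0.65, edgeR adjusted p = 0.0072), and without IRF8KO replicate 3 the log2 fold change was −2.72 and the call was lost (adjusted p = 0.0534).

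In the same family, Slc12a4 and Slc12a7 had log2 fold changes of −0.84 and −0.33 and were not called, and their signs changed in none of the 17 other settings. Slc24a3, which trades sodium for calcium and potassium, had 25.5, 14.9 and 19 CPM in WT and 4.33, 10.1 and 5.42 in IRF8KO. It fell by 1.57 (SE 0.45, edgeR adjusted p = 0.0307) and lost the call in 4 other settings. The mitochondrial calcium exchanger Slc8b1 was not called (log2 fold change 0.46, edgeR adjusted p = 0.311; without WT replicate 3 0.75, adjusted p = 0.0259).

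The pumps that make the sodium and proton gradients on which many of these transporters run had 3 higher and 1 lower of 10 tested, with a median log2 fold change of 1.12. Fxyd5, a small regulator of the sodium pump, rose by 4.49 (edgeR adjusted p = 4.9e-05). The accessory subunit of the proton pump, Atp6ap2, was at 75.7 ± 21.6 CPM in WT and 27.9 ± 12.4 in IRF8KO (SD, n = 3) and was the lower one.

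**Figure D3:**
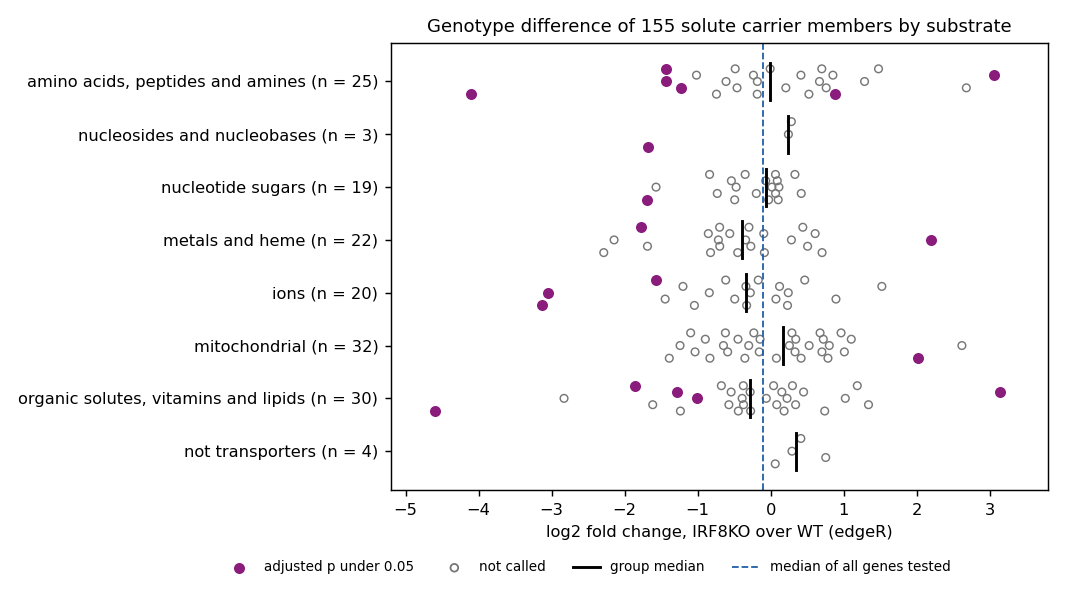
Log2 fold change of IRF8KO over WT (horizontal axis, edgeR with TMM) for the 155 members by substrate group, with called members filled, the others open, black bars at group medians and a dashed line at the median of all genes tested. Group medians run from −0.40 for metals and heme to 0.35 for the 4 symbols that are not transporters, and most of the called members lie left of 0.

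Mitochondrial carriers, the 32 members of the Slc25 family, had 1 called gene. Slc25a10 (chr11:120491840-120499187, plus strand), the dicarboxylate carrier that trades malate and succinate for phosphate, had 33.3, 36.5 and 83.1 CPM in WT and 264, 151 and 203 in IRF8KO. All 3 IRF8KO libraries lay above WT replicate 3, the highest WT library. It rose by 2.01 on the log2 scale (SE 0.39, edgeR adjusted p = 0.0042) and by 2.58 without WT replicate 3. The family's median log2 fold change was 0.17, and 13 members (40.6%) did not overlap between genotypes, 7 higher and 6 lower, against 37.9% of all genes.

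The highest RPKM of the family belonged to Slc25a5 and Slc25a11. Slc25a5, the exchanger of ADP and ATP, had 278 ± 27.6 RPKM in WT and 204 ± 24.8 in IRF8KO (SD, n = 3). It was not called (log2 fold change −0.45, edgeR adjusted p = 0.276), and 71.5% of its transcript matches the pseudogene Gm5560. It was called lower with library size alone (−0.99, adjusted p = 0.0151) and with the GC and length offset (−0.81, adjusted p = 0.0053). Slc25a11, which trades oxoglutarate for malate, had 206, 238 and 376 CPM in WT and 489.9, 372 and 488 in IRF8KO, where WT replicate 3 just passed IRF8KO replicate 2. It was not called (0.72, SE 0.31, adjusted p = 0.131) and was called higher without WT replicate 3 (1.05, adjusted p = 0.0026) and with library sizes without Apoe (0.75, adjusted p = 0.0083). The mitochondrial glutathione carrier Slc25a39 likewise had 173, 205 and 463 CPM in WT and 498, 379 and 489 in IRF8KO (0.70, adjusted p = 0.218; without WT replicate 3 1.30, adjusted p = 8.7e-04).

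Of 30 transporters of organic solutes, vitamins and lipids, 4 fell and 1 rose (16.7% called), with a median of −0.28. Of the called ones, Slc5a10 and Slc13a2 reached 20 counts in 1 genotype only and had to differ, so their calls are no support. Without WT replicate 3, 6 members of the group were higher and 4 lower (33.3% called, against 33.5% of all genes), and the median turned to 0.16. Slc46a3 (chr5:147878437-147894815, minus strand), a lysosomal relative of the folate carrier, had 168, 171 and 164 CPM in WT and 50.7, 51.7 and 36.3 in IRF8KO. The WT libraries spread by only 3.72 CPM (SD, n = 3), the least for its level among the 5 members that kept their call in every setting. It fell by 1.86 (SE 0.27, edgeR adjusted p = 7.8e-04) and by 1.83 without WT replicate 3. Slc37a2, which exchanges sugar phosphate for phosphate in the endoplasmic reticulum and is known from macrophages, had 215, 228 and 279 CPM in WT and 119, 91.7 and 85.9 in IRF8KO. It fell by 1.28 (SE 0.28, edgeR adjusted p = 0.0075) and lost the call without IRF8KO replicate 3 (adjusted p = 0.0755).

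Slc22a17, a receptor for the iron-binding protein lipocalin-2, had 90.3, 95.8 and 161 CPM in WT and 66, 55.1 and 50.5 in IRF8KO. It fell by 1.02 (SE 0.30, edgeR adjusted p = 0.0364), a call lost in 5 other settings. Slc5a10, a sodium and sugar cotransporter, had 4.86, 5.59 and 9.24 CPM in WT and 0.803, 0 and 0.108 in IRF8KO, and a log2 fold change of −4.59 (SE 1.03, edgeR adjusted p = 0.0093). Without IRF8KO replicate 3 it was −4.18 and the call was lost (adjusted p = 0.0685). Leaving out 1 library gave −6.69, without IRF8KO replicate 1, to −3.90, without IRF8KO replicate 2. It passed through WT libraries only, so its call is no support, and 16.8% of its exonic length is shared with another gene. Slc13a2, a transporter of citrate and succinate, rose from 0.609 ± 0.481 to 5.2 ± 2.34 CPM (SD, n = 3), passed through IRF8KO libraries only, shares 26.2% of its exons and lost the call in 4 settings. Slc5a10, Slc13a2 and Slc38a6 average under 5 CPM over the 6 libraries and were named after their values were seen.

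The best expressed of these, the sugar transporter Slc50a1, had 141, 135 and 223 CPM in WT and 238, 204 and 238 in IRF8KO and was not called (0.45, edgeR adjusted p = 0.306; without WT replicate 3 0.75, adjusted p = 0.0090). The choline transporter Slc44a2 was not called either (0.08, adjusted p = 0.891). Among the 19 nucleotide sugar transporters of the Golgi, Slc35b2 and Slc35c2 had the highest levels per length, with 203 ± 122 and 147 ± 85.1 RPKM in WT and 177 ± 34.3 and 153 ± 24.2 in IRF8KO (SD, n = 3), and were not called. Without WT replicate 3, Slc35c2 was called higher (0.68, adjusted p = 0.0168). The only call in that group was Slc35e3, a member with no settled cargo, with 26.3, 21.1 and 23.3 CPM in WT and 8.67, 8.70 and 4.45 in IRF8KO. It fell by 1.69 (SE 0.40, edgeR adjusted p = 0.0122). Without IRF8KO replicate 3 the log2 fold change was −1.42 and the call was lost (adjusted p = 0.0682), and 23.7% of its transcript matches the predicted gene Gm7902. None of the 4 symbols that match the rule without being transporters was called. The best expressed of them, the scaffold protein Slc9a3r1, had 99.0, 96.4 and 178 CPM in WT and 184, 141 and 172 in IRF8KO (0.41, adjusted p = 0.384; without WT replicate 3 0.79, adjusted p = 0.0090).

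Without WT replicate 3, 30 more members were called higher, and 29 of these had WT replicate 3 above both other WT libraries. In that fit 22.6% of the members were higher and 34.2% called in either direction, against 18.1% and 33.5% of all genes. The 30 include Slc13a3, Slc25a39, Slc25a11, Slc3a2, Slc38a7, Slc25a3 and Slc48a1. By group, 7 carry amino acids, 7 are mitochondrial, 5 carry organic solutes, 4 nucleotide sugars, 3 ions, 1 metals and 1 nucleosides, and 2 are not transporters. Over the 155 members, the difference of WT replicate 3 from the other WT libraries ran with the GC content of the longest transcript (Spearman 0.736, a description over genes measured in the same libraries, which are no replicates of each other). The same measure was 0.509 for IRF8KO against WT replicates 1 and 2, −0.168 for IRF8KO against WT replicate 3 and 0.338 for IRF8KO against all WT. With an offset for GC content and length in each library, 37 members were called, 14 higher and 23 lower. That is 23.9% of the members against 23.8% of all genes, and the median was 0.013 over the members and −0.0045 over all genes.

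**Figure D4:**
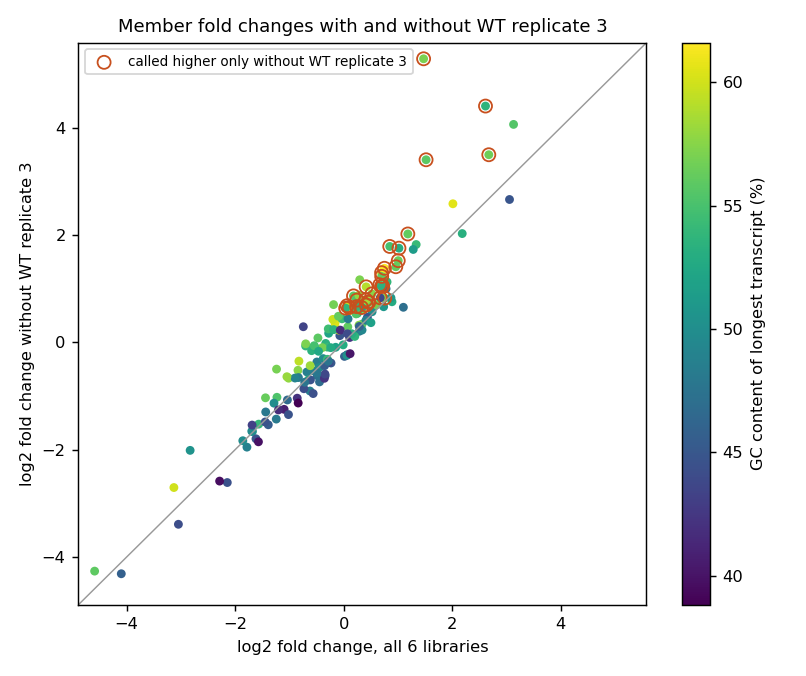
Log2 fold change of IRF8KO over WT for each of the 155 members with all 6 libraries (horizontal axis) and without WT replicate 3 (vertical axis), coloured by the GC content of the longest transcript, with a line where both are equal and rings around the 30 members called higher only without that library. The 30 ringed members lie above the line, at higher values without that library.

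Because the label names a transcription factor, the 250 bases before each start site were searched on both strands. RefSeq promoters of the GRCm38.p6 build were matched by symbol for 123 of the 155 members and 15 of the 19 called ones. A member counted when any of its promoters held the motif, while the share over all 32851 promoters is per promoter. These shares are unlike units, and a member with more promoters had more chances of a match. An ETS-IRF composite motif, GGAA followed after any 2 bases by GAAA, was found in 4.07% of the members (5) and in 2.30% of all 32851 promoters, and the core of the interferon-stimulated response element, GAAA followed after any 2 bases by GAAA, in 2.44% (3) and 2.98%. No called member was among these 8. Each site is shown with 20 bases on either side, on the gene's strand, with the motif or its complement in capitals, since these are the members where the letters an IRF protein is known to read lie next to the start.

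Slc7a1 (chr5:148392904-148392953, minus strand, log2 fold change 1.28): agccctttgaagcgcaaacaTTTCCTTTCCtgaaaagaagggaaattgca

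Slc7a7 (chr14:54409651-54409700, minus strand, log2 fold change −0.46): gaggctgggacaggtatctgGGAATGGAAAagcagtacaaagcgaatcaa

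Slc8a1 (chr17:81738448-81738497, minus strand, log2 fold change 0.12): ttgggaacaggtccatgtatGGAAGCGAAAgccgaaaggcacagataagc

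Slc29a1 (chr17:45596012-45596061, minus strand, log2 fold change 0.24): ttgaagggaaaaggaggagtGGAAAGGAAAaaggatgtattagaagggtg

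Slc35f6 (chr5:30647775-30647824, plus strand, log2 fold change 0.33): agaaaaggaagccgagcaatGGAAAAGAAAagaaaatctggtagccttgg

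Slc25a15 (chr8:22398669-22398718, minus strand, log2 fold change −0.62): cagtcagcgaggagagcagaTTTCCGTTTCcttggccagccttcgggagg

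Slc25a22 (chr7:141435425-141435474, minus strand, log2 fold change 0.33): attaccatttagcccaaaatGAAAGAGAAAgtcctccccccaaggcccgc

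Slc37a1 (chr17:31296167-31296216, plus strand, log2 fold change 1.02): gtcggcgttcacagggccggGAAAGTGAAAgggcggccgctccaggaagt

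Other letters were searched in the same windows. GAGGAA, the core read by the macrophage factor PU.1, was in 23.6% of the members and 23.3% of all promoters, among the called members in Slc13a2, Slc37a2 and Slc5a10. Its last 4 letters can be the first 4 of the composite motif. TGATGCAA, the core of the amino-acid response element, was in 2 members, none of them called, and in 0.791% of all promoters. CACGTG, the E-box shown above for Slc12a9, was in 21 members (17.1%) and 6.02% of all promoters. These 21 are 6 mitochondrial carriers, 4 carriers of organic solutes, 3 of ions, 3 of metals, 2 of amino acids, 2 of nucleotide sugars and 1 of nucleosides, and Slc12a9 and Slc35e3 are the 2 that were called, both lower. These shares too are per gene for the members and per promoter for all promoters, so they are unlike units. No chance test was made of them, and a match is a description, not a site of binding. The windows of Slc1a3, Slc46a3, Slc29a3 and Slc25a10, which like Slc12a9 kept their call in every setting, hold none of the 5 motifs.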

How the data were processed

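The authors deposited raw counts, whole numbers of reads for each gene, laid out like STAR's gene count output with 4 summary lines, 1 column that ignores strand and 2 that use it. STAR 2.5.2b, Picard 2.17.11, bcl2fastq, Subread, featureCounts and the mm10 build appear in the submitters' processing notes without a role, and the annotation release is not given in the sources used here. The summary lines, 18.9% to 21.9% of all reads, stayed out of library sizes. The count that ignores strand was used, since 49.8% to 50.3% of gene counts fell on either strand. Of 49585 Ensembl identifiers, 49326 matched GENCODE M21 and 259 did not.

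All genes were fitted with edgeR 4.0.16 in R 4.3.3 (default filter with minimum count 10, TMM scaling, two-sided quasi-likelihood test, genotype the only term), which left 11041 genes, and Benjamini-Hochberg adjusted p-values under 0.05 were called. All 155 members passed this filter. The fit was also run on simulated data, with changes set only in well-counted genes. Those data held no library like WT replicate 3 and no GC effect, so that run does not bear on such features. Standard errors were derived from the F statistic. CPM use TMM-scaled library sizes, and RPKM divide them by exonic length. Near-identical copies of the members were searched with BLAST 2.17.0 at 97% identity over at least 20% of the longest transcript, and 15 members share over 10% of their exons with another gene. Reads of such genes are uncertain. Replicates are separate brains.

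Substrate groups, partner lists and marker lists came from general knowledge. The members and lists were chosen with earlier results of these data known. Named genes are, per group, the called members with the smallest p and a mean of at least 5 CPM (up to 4, or 6 for amino acids), the 2 with the highest RPKM, a fixed set including Slc3a2 and its light chains, genes at 0 in 1 genotype, those at the count threshold, and the 3 smallest p per partner list. Some genes that the rule or lists name are not reported here. Alternatives were library size alone, median-ratio factors, DESeq2 1.42.0, limma-voom (limma 3.58.1), other filters and thresholds, stranded counts, a GC and length offset, a replicate block, leaving out each library and, added after seeing the data, library sizes without Apoe.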

Additional observations from a re-analysis of the deposited data

How the results depend on the processing

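Library size alone moved the members from 19 called to 43 (2 higher, 41 lower), the median to −0.63 and all genes to 651 higher and 1908 lower. The GC and length offset gave 37 members (14 higher, 23 lower) and a median of 0.013, opposite in sign to −0.17. Higher members numbered 8 with DESeq2 and with limma-voom, 9 with library sizes without Apoe, and 3 with at least 10 counts in every library. With a member threshold of 50 counts in 3 or more libraries 3 were higher, and with 20 counts in all 6 libraries 2 were. Leaving out 1 library gave 5 to 53 called members, 1 to 35 higher and 4 to 18 lower, medians of −0.25 to 0.089, and over all genes 910 to 4003 calls, 524 to 2168 higher and 386 to 1835 lower. The lowest counts came without IRF8KO replicate 3 and the highest without WT replicate 3, where the median of 0.089 also turned. These causes were not tested. Values under alternatives were tallied for part of the named genes, and Slc13a2, Slc38a6, Slc25a18 and Slc25a39 are among those left out. Of these values, 499 kept side and direction, 42 lost a call, 25 gained one and 23 changed sign. The changes of sign lay in 8 genes, with no call in the settings where they turned. With library size alone these were Slc22a18 (−0.14), Slc29a1 (−0.19), Slc35c2 (−0.35), Slc44a2 (−0.38), Slc50a1 (−0.014), Slc8b1 (−0.024) and Slc9a3r1 (−0.045), and with the GC and length offset Slc22a18 (−0.22), Slc50a1 (−0.23) and Slc9a3r1 (−0.012). Slc35c2 turned with no filter (−4.0e-04), and Slc35c2 (−0.17) and Slc44a2 (−0.13) with second-strand counts. Leaving out 1 library also turned 5 of them, with ranges of −0.13 to 1.16 for Slc22a18, −0.025 to 0.79 for Slc29a1, −0.52 to 0.43 for Slc35b2, −0.17 to 0.68 for Slc35c2 and −0.081 to 0.44 for Slc44a2. Depth limits the scarce members most in WT replicate 1, the shallowest library, where Slc13a2 had 3 reads.

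The replicate numbers name samples only: deviations from the group means correlated at −0.26, 0.328 and 0.114 for numbers 1, 2 and 3. A fit with the replicate number as a block called 25 members (16.1%, against 21.3% of all genes), 6 higher and 19 lower, 18 of them shared with the fit without the block.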

Other observations

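Of the 187 solute carrier candidates under the count threshold, 98 were at 0 in all 6 libraries and 21 entered the test, and 6 of these (28.6%, against 19.1% of all genes tested) were called in edgeR's quasi-likelihood test. In 5 of the 6, all but Slc25a46, the libraries of 1 genotype held 3 counts or fewer in all, so the gene entered the test through the other genotype only and had to differ. The counts of these 5 are a description, and their adjusted p-values are no support. Slc9a7, a proton exchanger of the Golgi, had 26, 84 and 17 counts in WT and 0 in every IRF8KO library, at least 42.5-fold lower against a floor of 3 counts over the group. Slc5a5, the iodide transporter, had 13, 62 and 39 counts in WT and 0 in IRF8KO, at least 38.1-fold lower. Slc36a2, a proton-coupled transporter of small amino acids, had 14, 69 and 39 counts against 1, 0 and 0, a ratio of 122 with an exact 95% interval of 21.6 to 4872. Slc14a1, the urea transporter, had 11, 28 and 37 counts against 0, 0 and 2, a ratio of 38.1 with an interval of 10.2 to 320.4. Slc25a46, just outside the threshold, was also lower (edgeR adjusted p = 0.0147). It had 10.5, 12.9 and 2.62 CPM in WT and 1.61, 0.718 and 1.19 in IRF8KO, so its size rests mostly on WT replicates 1 and 2. With 10, 8 and 11 counts in IRF8KO, its entry into the test also leaned on the WT libraries, and its call is no support.

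Slc1a2, the main glutamate transporter of astrocytes, was the only higher one: it had 1 count in each WT library and 38, 55 and 14 in IRF8KO, a ratio of 35.6 with an exact 95% interval of 11.8 to 175. It entered the test through the IRF8KO libraries only. The astrocyte list summed to 28.7 to 49 CPM in IRF8KO and 3.19 to 12.4 in WT. Of its 4 tested genes, Gfap, Aldh1l1 and S100b were called higher, and Sox9 was at 0. Astrocyte genes near 0 in WT had to differ in the same way, and the part of astrocyte RNA in Slc1a2 was not tested.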
